A study of Homo sapiens with 18 samples.

Results

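Collagen chain genes were followed in A549 and H358, established lines of human lung adenocarcinoma, in which RAD21 had been depleted or overexpressed. The members are the protein-coding genes whose symbol reads COL, a number, A and a number, which selects 44 of the 58735 genes in the deposited tables. By what their chains build, 11 are fibrillar, 6 belong to basement membrane (type IV), and 27 are others. RAD21, a subunit of the cohesin ring that shapes chromosome loops, was depleted in both lines with a lentiviral short hairpin RNA (A549 shRAD21 and H358 shRAD21), against cells that carried a control vector (A549 shNC and H358 shNC). In a second experiment RAD21 was overexpressed in A549 (A549 RAD21OE), against an empty vector (A549 EV). All 6 groups held 3 libraries each, 18 in all. The labels date the knockdown batch to April and the overexpression batch to July, so levels are not tested across the 2 experiments. The hairpin sequences, the number of hairpins and whether cells were pools or clones are not given by the sources used.

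Collagens are secreted proteins in which chains wind around each other into a stiff helix. Fibrillar collagens assemble into the ropes of connective tissue. Type IV collagens form the sheet beneath epithelial and endothelial cells, and the remaining families link fibrils, anchor the epithelium, span the cell membrane or make beaded filaments. Most collagen in lung tissue is made by fibroblasts, while epithelial cells contribute to their own basement membrane. In tumour cells collagen genes are often read as part of a mesenchymal or matrix programme. Each gene encodes 1 chain, and several molecules need chains of different genes, so partner chains are described side by side below.

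RAD21 followed its labels in every library: 255 to 258 CPM (counts scaled to library size, the usual CPM unit) in A549 shNC against 101 to 130.5 CPM in A549 shRAD21, 570.0 to 598 against 379.5 to 432 CPM in H358, and 193 to 207 CPM with EV against 1317 to 1522 CPM with RAD21OE. Total counts per library ranged from 13024640 to 19277568. Replicate 3 of A549 shRAD21 stood apart, with a median absolute log2 difference over genes of 0.279 and 0.272 from its replicates, and so did replicate 3 of A549 RAD21OE with 0.253 and 0.218, where the other replicate pairs of the series lay between 0.0891 and 0.122. Fold changes also followed GC content across genes at 1 CPM or more (Spearman's rho -0.398 in the A549 knockdown, 0.219 in the H358 knockdown and 0.321 under overexpression, given as descriptions; among members at that level -0.0148, 0.148 and 0.0860). Members at 1 CPM or more were richer in GC, with medians of 57.0%, 59.4% and 54.5% in these comparisons. Over all genes at that level the medians were 49.3%, 48.8% and 49.4%. Since no label ties the replicates to separate cultures, each p-value reflects only how far these libraries differ, and that spread may be technical. Of 7 epithelial marker genes, all had counts in every group. Their summed level was 9630 to 10150 CPM in A549 shNC and 12293 to 15810 CPM in A549 shRAD21, 5822 to 6273 CPM in H358 shNC and 5950 to 6189 CPM in H358 shRAD21, and 11031 to 11342 CPM with EV and 12861 to 16740 CPM with RAD21OE. Summed over 10 stromal markers the level was 15.0 to 17.1 CPM in A549 shNC and 15.3 to 16.4 CPM in A549 shRAD21, with FAP and PDPN at 0 in both. It was 9.08 to 10.8 CPM in H358 shNC and 7.83 to 12.3 CPM in H358 shRAD21, with THY1, DCN and PDPN at 0 in both and POSTN also in shRAD21. Over 4 endothelial markers H358 had 15.7 to 18.2 CPM in shNC and 9.19 to 12.2 CPM in shRAD21, and A549 was under 1 CPM in each library. Over 3 alveolar type 2 markers H358 had 113 to 126 CPM in shNC and 149 to 163 CPM in shRAD21, where A549 had 0.0713 to 0.990 CPM. The part of these marker levels in the collagen values was not tested.

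The 6 type IV genes lie head to head as 3 pairs, and the DNA between 2 of these pairs is shown here because both genes of a pair are read away from it and moved the same way after knockdown in A549. COL4A4 (chr2, 227002711 to 227164453, minus strand) and COL4A3 (chr2, 227164565 to 227314792, plus strand) are 111 bases apart in GENCODE 29 on hg38. COL4A6 (chrX, 108155607 to 108439497, minus strand) and COL4A5 (chrX, 108439844 to 108697545, plus strand) are 346 bases apart, of which the 250 bases before the RefSeq start of COL4A5 are printed. Both stretches are from the plus strand, hold no exon of GENCODE 29, and are taken from the RefSeq promoter sequences of build GRCh38.p14, which held 32 of the 44 members. Capitals mark a GC box (GGGCGG) in the shorter stretch and CCAAT boxes (CCAAT, or ATTGG where it lies on the minus strand) in the longer.
COL4A4 and COL4A3, chr2:227164454-227164564: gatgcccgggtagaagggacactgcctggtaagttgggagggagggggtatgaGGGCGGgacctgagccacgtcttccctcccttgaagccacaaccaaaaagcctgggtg
COL4A6 and COL4A5, chrX:108439588-108439837: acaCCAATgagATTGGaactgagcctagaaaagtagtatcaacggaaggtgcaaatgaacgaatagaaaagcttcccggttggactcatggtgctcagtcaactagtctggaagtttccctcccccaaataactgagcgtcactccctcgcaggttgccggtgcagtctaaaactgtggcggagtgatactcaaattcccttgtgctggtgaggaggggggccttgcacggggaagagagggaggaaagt

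Both strands were searched for the GC box and the CCAAT box, for the TATA box with the letters TATAAA, and for the AP-1 site with the letters TGANTCA. The matches found do not overlap. The stretch between COL4A4 and COL4A3 held 1 GC box, and 32.9% of 35116 promoters held at least 1 in the 111 bases just before their RefSeq start. The windows are not alike, since the RefSeq start of COL4A3 (chr2, 227164624) lies beyond the end of the printed stretch, so the shares for this stretch are a rough guide. The stretch before COL4A5 held 2 CCAAT boxes, 1 on each strand, and 32% of promoters held at least 1 in their last 250 bases. TATAAA and TGANTCA were found in neither stretch, against 5.35% and 3.09% of promoters over 111 bases and 10.7% and 6.57% over 250 bases. GC content was 61.3% in the shorter stretch (median of all promoters over the same length 60.4%) and 51.2% in the longer (58%). The third pair, COL4A1 (chr13, 110148963 to 110307233, minus strand) and COL4A2 (chr13, 110305812 to 110513209, plus strand), overlaps in GENCODE 29. Its RefSeq starts are 126 bases apart, and no intergenic stretch is left to show.

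The control libraries of the lines differed in which collagens they carried. Levels between genes are compared here per length, as FPKM (CPM per kilobase of exon). In A549 shNC the most abundant was COL5A2, a fibrillar chain that pairs with COL5A1 and regulates fibril width, at 69.6 ± 3.65 FPKM (mean ± SD, n = 3). It was followed by COL7A1, the anchoring fibril chain, at 36.8 ± 1.27 FPKM, COL18A1, a basement membrane proteoglycan core that yields endostatin, at 32.4 ± 0.270 FPKM, and COL4A2 at 11.2 ± 0.501 FPKM. COL7A1 and COL18A1 lay within a few FPKM of each other, but their ranges did not meet. In H358 shNC the order was COL18A1 (21.3 ± 2.03 FPKM), COL6A1, a beaded filament chain (11.1 ± 0.230 FPKM), COL5A1 (6.38 ± 0.574 FPKM) and COL7A1 (5.78 ± 0.552 FPKM). The last 2 of these differed by about their spread. Summed over the 44 members, the collagen level was 1909 to 1939 CPM in A549 shNC and 511 to 573 CPM in H358 shNC.

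**Figure D1:**
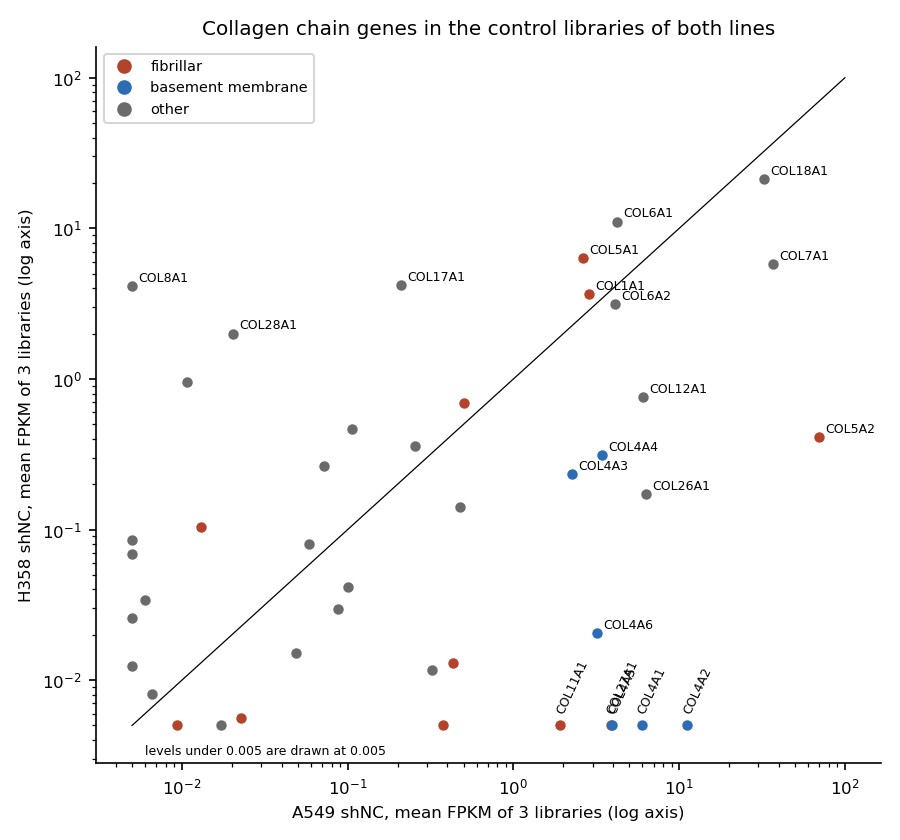
Each point is 1 collagen gene, with its mean FPKM over 3 A549 shNC libraries on the horizontal and over 3 H358 shNC libraries on the vertical log axis, levels under 0.005 FPKM drawn at 0.005, and the line marking equal levels. All 6 basement membrane genes lie below the line, COL5A2 reaches 69.6 FPKM in A549, COL8A1 and COL17A1 lie far above the line, and the points of COL27A1 and COL4A5 nearly coincide at the bottom.

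Between the controls, 19 of 37 members tested were lower in H358 and 13 were higher at an adjusted p under 0.05 (edgeR's quasi-likelihood F-test, Benjamini-Hochberg over all genes tested), where 31.5% of all genes tested were lower and 35.1% higher. Every type IV gene was lower in H358, and 5 of 9 fibrillar genes tested were too. COL4A1 had 3973 counts over the A549 shNC libraries and 0 over those of H358 shNC, at least 1626-fold lower taking 3 counts as the floor of that group. COL27A1, a fibrillar chain of cartilage, had 2447 counts against 0 (at least 1002-fold lower), and COL11A1, a minor fibrillar chain, had 785 against 0 (at least 321-fold lower). COL5A2 was at 495.5, 512.2 and 548.7 CPM in A549 shNC and at 4.01, 3.24 and 1.9 CPM in H358 shNC (log2 difference -7.40, SE 0.13, adjusted p = 6.27e-22 by edgeR). In the other direction, COL8A1, a short network-forming chain, was at 0, 0 and 0.0713 CPM in A549 shNC and at 42.9, 38.7 and 35.7 CPM in H358 shNC (10.37, SE 0.28, adjusted p = 1.06e-17 by edgeR). COL17A1, the transmembrane collagen of hemidesmosomes, was at 1.49 CPM in A549 shNC and 29.7 CPM in H358 shNC, and the transmembrane COL13A1 at 0.0633 and 5.63 CPM. COL28A1 was at 0.135 CPM in A549 shNC and 13.3 CPM in H358 shNC (6.56, SE 0.34, adjusted p = 8.10e-14 by edgeR). COL1A1, the main chain of type I collagen, was at 27.9 CPM in A549 shNC and 36.1 CPM in H358 shNC, and COL1A2, the other chain of the common type I molecule, had 5 counts in A549 shNC and 0 in H358 shNC. Over all 18 libraries COL1A2 had 8 counts, COL23A1 15, COL6A5 3 and COL6A6 19, and these 4 members were under 10 counts in each of the comparisons below.

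Knockdown of RAD21 in A549 lowered a broad set of collagens and raised 3, all of type IV. Of 44 members, 33 had 10 or more counts over the 6 libraries and were tested; 15 fell, where 10.6% of all 21592 genes tested did, and 3 rose, where 11.7% did. The median log2 fold change was -0.50 over the members tested and -0.00 over all genes tested. All treated libraries lay above every control for 3 members tested and below for 16. The groups likewise did not overlap for 31.2% of all genes tested. The summed collagen level was 1211, 1242 and 1704 CPM in the shRAD21 libraries, all below the 1909 to 1939 CPM of shNC. No library of the treated group reached the controls, and replicate 3 came closest.

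Among fibrillar genes in A549 the knockdown lowered 4 of 9 tested. COL11A1 went from 15.7, 19.1 and 17.5 CPM in shNC to 2.64, 2.70 and 3.55 CPM in shRAD21 (log2 fold change -2.56, SE 0.19, adjusted p = 5.91e-09 by edgeR). All treated libraries were far below the controls. COL3A1, the type III chain of skin and vessel walls, went from 2.63, 3.77 and 2.35 CPM to 0.539, 0.629 and 0.614 CPM (-2.29, SE 0.36, adjusted p = 5.49e-05 by edgeR). COL5A2, the most abundant of the members, went from 495.5, 512.2 and 548.7 CPM to 212.7, 204.7 and 214.0 CPM (-1.30, SE 0.09, adjusted p = 5.35e-10 by edgeR). The treated libraries lay close together, far below every control. Its partner COL5A1 was at 30.2, 27.4 and 30.4 CPM in shNC and 23.5, 24.8 and 39.9 CPM in shRAD21 (-0.00, adjusted p = 0.996 by edgeR). There the groups overlapped through replicate 3, and without it COL5A1 was lower (log2 fold change -0.24, adjusted p = 0.0183). COL5A3, a less common type V chain, fell (-0.94, adjusted p = 0.0360 by edgeR), a call that ended when any of the A549 shNC libraries or shRAD21 replicate 1 or 2 was left out (adjusted p 0.0872 to 0.143), by DESeq2 (0.0646) and with correction for GC content and length (0.119). COL1A1 was at 29.6, 24.6 and 29.4 CPM in shNC and 23.3, 24.6 and 26.3 CPM in shRAD21 (-0.17, SE 0.10, adjusted p = 0.241). COL11A2 (-0.35), COL24A1 (-0.30) and COL27A1 (0.02) did not pass either. No fibrillar gene rose by edgeR, limma-voom or DESeq2, and 0 were higher at an unadjusted p under 0.05.

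Within type IV collagen, COL4A3 moved with COL4A4 and COL4A5 with COL4A6, while only COL4A1 was called in the remaining pair. COL4A3 and COL4A4 make, with COL4A5, the network of alveolar and glomerular basement membrane. COL4A4 rose from 35.3, 35.4 and 32.5 CPM to 90.2, 89.9 and 75.0 CPM (1.30, SE 0.10, adjusted p = 1.35e-09 by edgeR). COL4A3 rose from 19.2, 22.6 and 20.1 CPM to 51.2, 54.5 and 40.2 CPM (1.24, SE 0.12, adjusted p = 6.97e-08 by edgeR). For these neighbours, which face each other across the 111 bases printed above, every treated library lay above every control. The pair on chromosome X went the other way: COL4A6 fell from 30.0, 29.4 and 29.9 CPM to 11.3, 15.5 and 15.2 CPM (-1.09, SE 0.14, adjusted p = 5.44e-06 by edgeR). COL4A5 fell less, from 44.8, 45.1 and 49.9 CPM to 39.4, 35.1 and 32.5 CPM (-0.39, SE 0.10, adjusted p = 0.0108 by edgeR). Its call ended without shNC replicate 3 (adjusted p = 0.0926) or shRAD21 replicate 2 (adjusted p = 0.0611). COL4A1 and COL4A2 form the common type IV molecule of most basement membranes. COL4A1 rose from 92.8, 83.7 and 86.6 CPM to 109, 103 and 149 CPM (0.46, SE 0.11, adjusted p = 0.00525 by edgeR). COL4A2 was at 226, 211 and 208 CPM in shNC and 179, 191 and 348 CPM in shRAD21 (0.15, adjusted p = 0.559), and without shRAD21 replicate 3 its direction turned (-0.19, adjusted p = 0.00582).

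**Figure D2:**
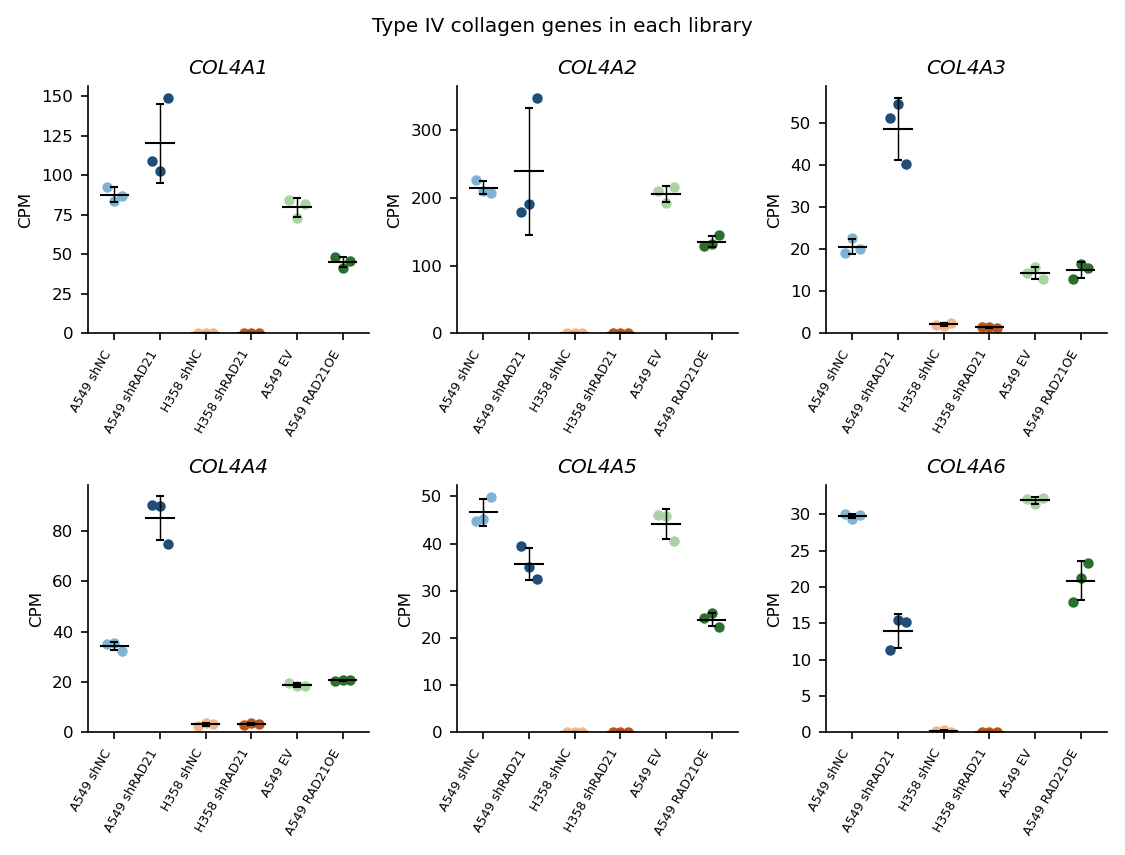
CPM of the 6 type IV collagen genes in each of 18 libraries (points), with the mean (line) and SD (bar) of 3 libraries per group; the linear axes start at 0. COL4A3 and COL4A4 are higher in A549 shRAD21 than in shNC, COL4A5 and COL4A6 are lower in both A549 treatments, replicate 3 of A549 shRAD21 lies above its replicates for COL4A1 and COL4A2, and all 6 genes are near 0 in H358 next to A549.

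Of the other collagens in A549, 9 of 18 tested fell with the knockdown and 0 rose by edgeR, limma-voom or DESeq2 (0 at an unadjusted p under 0.05). COL26A1, a little studied secreted collagen, fell from 19.3, 19.7 and 20.3 CPM to 3.47, 3.77 and 5.73 CPM (-2.20, SE 0.19, adjusted p = 1.44e-08 by edgeR). COL18A1 fell from 276, 279 and 274 CPM to 105, 104 and 170.4 CPM (-1.13, SE 0.13, adjusted p = 5.41e-07 by edgeR). Replicate 3 of shRAD21 was again nearest to the controls, and the groups stayed apart. COL18A1 shares 16.43% of its exon sequence with SLC19A1 on the other strand, and whether counting used strand is not stated in the sources used. How far this affects the COL18A1 values is not known, and the share of exon sequence does not measure it. SLC19A1 itself had a log2 fold change of 0.16 (adjusted p = 0.385). COL21A1, a fibril-associated chain, went from 1.71, 1.82 and 1.85 CPM to 0.719, 0.251 and 0.341 CPM (-2.00, SE 0.37, adjusted p = 0.000378 by edgeR). The 3 tested chains of type VI, which form beaded filaments around cells, fell together. COL6A1 went from 24.4, 22.0 and 20.7 CPM to 11.3, 14.5 and 16.6 CPM (-0.67), COL6A2 from 21.6, 24.0 and 20.5 CPM to 13.7, 14.4 and 18.8 CPM (-0.50), and the scarce COL6A3 from 1.16, 1.48 and 0.784 CPM to 0.120, 0.126 and 0.341 CPM (-2.54). Their adjusted p-values by edgeR were 0.000178, 0.00408 and 0.000993, and the call of COL6A2 ended under correction for GC content and length, with a log2 fold change of -0.22. COL12A1, which decorates fibrils, fell from 76.9, 73.4 and 74.8 CPM to 49.8, 52.0 and 47.3 CPM (-0.60, SE 0.10, adjusted p = 7.54e-05 by edgeR). COL20A1 (-0.89, adjusted p = 0.0407) and COL7A1 (-0.46, adjusted p = 0.0181) also passed, but both calls ended without shNC replicate 1 or 2 or shRAD21 replicate 1 or 2, with adjusted p of 0.0992 to 0.242 for COL20A1 and 0.0527 to 0.145 for COL7A1. That of COL20A1 also ended by DESeq2 (adjusted p = 0.0691), with correction for GC content and length (0.107) and with the 6 libraries alone (0.0539), and that of COL7A1 with the 6 libraries alone (0.0934). COL7A1 was at 423, 399.7 and 398 CPM in shNC and 232, 244 and 414 CPM in shRAD21, so its groups overlapped through replicate 3.

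**Figure D3:**
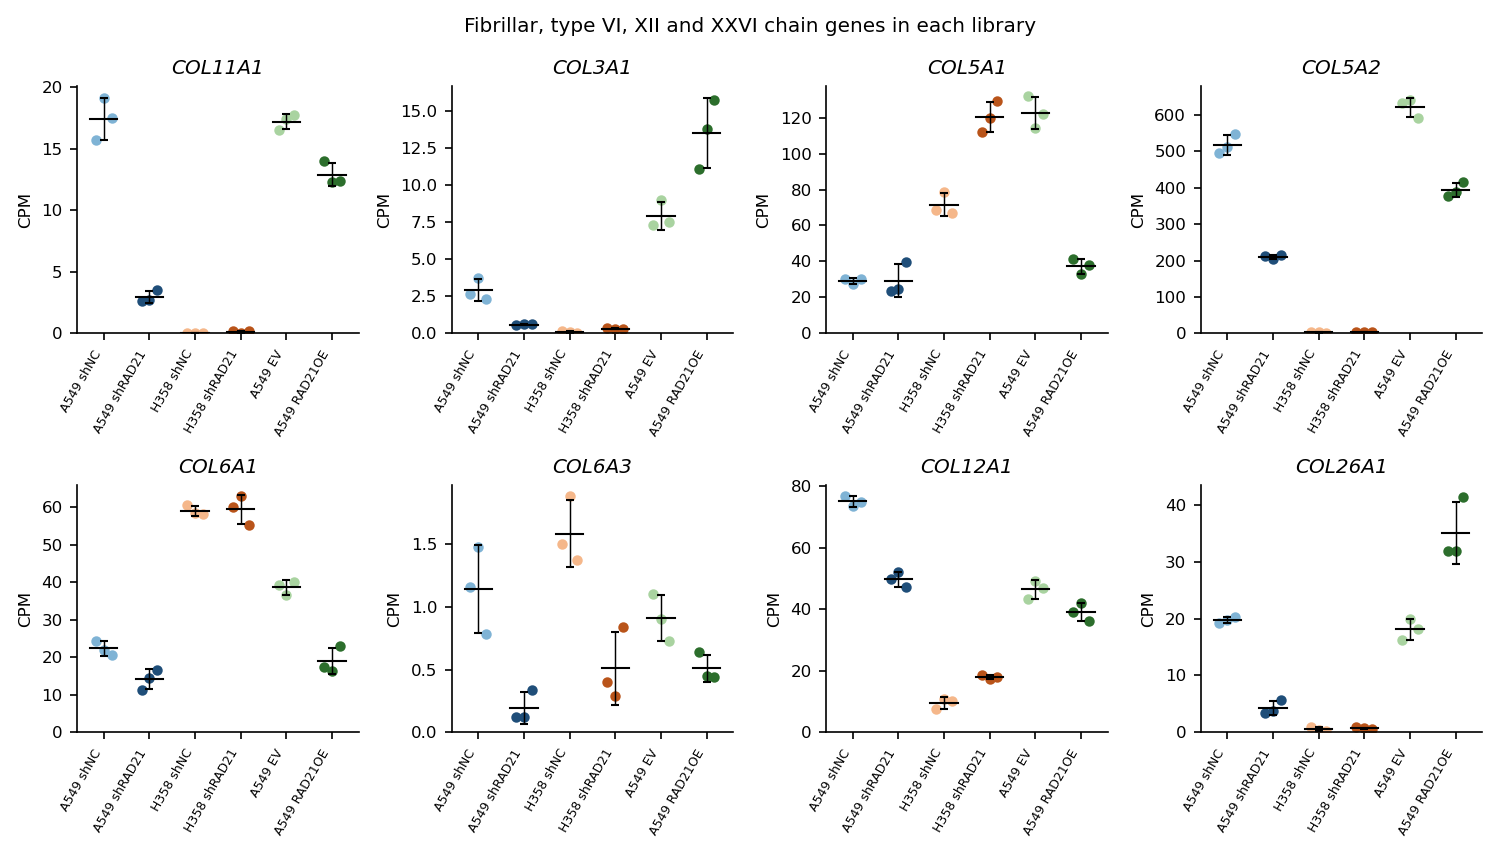
CPM of 8 fibrillar, type VI, XII and XXVI chain genes in each of 18 libraries (points), with the mean (line) and SD (bar) of 3 libraries per group; the linear axes start at 0. COL11A1, COL5A2 and COL26A1 drop in A549 shRAD21, COL5A1 and COL12A1 rise in H358 shRAD21, and COL3A1 and COL26A1 rise in A549 RAD21OE.

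With RAD21 knockdown in H358 fewer collagens were called than in A549, as were fewer of all genes tested. RAD21 itself fell less there (log2 fold change -0.51, against -1.10 in A549). Of 34 members tested, 3 rose, where 2.80% of all 23958 genes tested did, and 3 fell, where 3.54% did. The median log2 fold change was 0.18 over the members tested, with genes at 0 in a group set at their bound, and -0.00 over all genes tested. All treated libraries lay above every control for 11 members tested and below for 5. The groups likewise did not overlap for 31.3% of all genes tested. COL5A1 rose from 68.4, 78.8 and 67.1 CPM in shNC to 112, 120.0 and 129 CPM in shRAD21 (0.75, SE 0.13, adjusted p = 0.000638 by edgeR), with every treated library above every control. Its partner COL5A2 was at 4.01, 3.24 and 1.9 CPM in shNC and 4.26, 3.57 and 4.31 CPM in shRAD21 (0.40, adjusted p = 0.201). COL12A1 rose from 7.45, 10.9 and 10.2 CPM to 18.5, 17.2 and 17.9 CPM (0.90, SE 0.11, adjusted p = 2.99e-05 by edgeR). COL15A1, a basement membrane zone collagen related to COL18A1, rose from 0.0556, 0.241 and 0.297 CPM to 0.748, 0.806 and 0.840 CPM (1.97, adjusted p = 0.0495 by edgeR). These groups did not overlap, but the counts were few, and leaving out any 1 of the 6 libraries ended the call (adjusted p 0.0828 to 0.208).

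The collagens that fell in H358 were scarce. COL6A3 went from 1.5, 1.88 and 1.37 CPM to 0.403, 0.288 and 0.840 CPM (-1.62, SE 0.40, adjusted p = 0.0159 by edgeR). COL21A1 went from 2.95, 2.75 and 1.96 CPM to 1.67, 1.04 and 1.23 CPM (-0.96, SE 0.29, adjusted p = 0.0477 by edgeR). COL4A6 had 11 counts over the shNC libraries and 0 over the shRAD21 libraries, at least 3.47-fold lower with the floor at 3 counts (adjusted p = 0.0246). It met the filter of 10 counts only through shNC, where it was higher. The call of COL6A3 ended without shNC or shRAD21 replicate 1 or 2 (adjusted p 0.0530 to 0.114). That of COL21A1 ended without any 1 library but shNC replicate 3 (0.0592 to 0.204), and so did that of COL4A6 (0.0689 to 0.104). COL6A1, at 60.5, 58.5 and 58.2 CPM in shNC and 60.1, 63.0 and 55.3 CPM in shRAD21, gave 0.01 on the log2 scale (SE 0.10), and COL6A2 gave 0.29 (adjusted p = 0.165). COL6A2 passed only with the 6 libraries alone (adjusted p = 0.0180 by edgeR). COL18A1, the most abundant in H358, was at 193, 189 and 161 CPM in shNC and at 171, 179.8 and 161 CPM in shRAD21 (-0.09, adjusted p = 0.781). It was called lower in 2 of 15 alternatives, with correction for GC content and length (-0.20, adjusted p = 0.00907 by edgeR) and with that correction and the replicate block (0.00521). SLC19A1 on its other strand rose (0.44, adjusted p = 0.0297). COL8A1 (0.29, adjusted p = 0.102) and COL17A1 (-0.36, adjusted p = 0.0504), both far higher in this line than in A549, did not pass by edgeR. COL8A1 passed by limma-voom (adjusted p = 0.0357), by DESeq2 (0.0444), with correction for GC content and length (0.00711) and with the 6 libraries alone (0.00101). COL17A1 passed by limma-voom (adjusted p = 0.0172), by DESeq2 (0.0176), with that correction (0.00318), with the 6 libraries alone (0.000781) and with the filterByExpr filter (0.0422). COL27A1 had 10 counts in shRAD21 and 0 in shNC, at least 3.52-fold higher against the floor, with an adjusted p of 0.0727.

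The difference between the knockdown responses was tested directly for the 28 members with 10 or more counts in both lines. The response was more positive in H358 than in A549 for 11, where 8.22% of all 19497 genes tested were, and more negative for 2, where 9.26% were. RAD21 itself was reduced less in H358 (log2 fold change -0.51) than in A549 (-1.10). For COL5A2 the difference was 1.70 (SE 0.19, adjusted p = 2.08e-06 by edgeR), for COL12A1 1.5 (SE 0.15, adjusted p = 3.17e-07 by edgeR), and for COL26A1 2.61 (SE 0.45, adjusted p = 0.000316 by edgeR). COL5A2 and COL26A1 were scarce in H358, at 0.594% and 2.77% of the A549 level in the controls. COL26A1 was at 0.543 CPM in H358 shNC and 0.723 CPM in H358 shRAD21. COL12A1 had moved in opposite directions, falling in A549 and rising in H358. For COL3A1 the difference was 3.96 (SE 0.76, adjusted p = 0.000849 by edgeR), from 0.0878 to 0.304 CPM in H358. The 2 genes more negative in H358 were the neighbours COL4A3 (-1.79, adjusted p = 4.08e-05 by edgeR) and COL4A4 (-1.22, adjusted p = 9.29e-05 by edgeR), which were 10.2% and 9.15% as high in the H358 controls as in those of A549. Within H358 neither passed, with COL4A3 at -0.55 (adjusted p = 0.182 by edgeR) and COL4A4 at 0.09 (adjusted p = 0.837 by edgeR). COL21A1, COL6A3 and COL4A6 were called lower in both lines, as were 205 of the 19497 genes. In H358 each of these calls ended when any 1 of several libraries was left out. COL4A6 rests there on 11 counts in shNC against 0 in shRAD21 and met the count filter through shNC alone. COL21A1 and COL6A3 had differences of 1.04 (adjusted p = 0.147) and 0.92 (adjusted p = 0.395). That of COL4A6 was -3.69 (adjusted p = 0.0555 by edgeR), a value that rests on 0 counts in H358 shRAD21 and is no bound. It passed in 6 of 20 alternatives. The 2 lines' comparisons share no libraries, but they were fitted together on 12 libraries with 1 estimate of the spread. A549 shRAD21 replicate 3 therefore also bears on the H358 p-values. With the 6 H358 libraries alone, COL7A1 was called higher there (log2 fold change 0.23, adjusted p = 0.00449 by edgeR). In the joint fit it gave 0.22 (adjusted p = 0.438 by edgeR).

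Overexpression of RAD21 in A549 also lowered more collagens than it raised. Of 32 members tested, 12 fell, where 9.42% of all 21183 genes tested did, and 4 rose, where 10.5% did. The median log2 fold change was -0.56 over the members tested and -0.02 over all genes tested. All RAD21OE libraries lay above every EV library for 6 members tested and below for 15. The groups likewise did not overlap for 37.7% of all genes tested. The summed collagen level was 2126, 2012 and 2051 CPM with EV and 1513, 1560 and 1724 CPM with RAD21OE, and the groups stayed apart. The summed level of the 10 stromal markers was also lower, at 30.3 to 34.3 CPM with EV and 14.1 to 22.3 CPM with RAD21OE, with PDPN at 0 in both. Of these TAGLN (-1.37, adjusted p = 5.23e-05 by edgeR), THY1 (-0.69, adjusted p = 0.0237) and LUM (-2.65, adjusted p = 0.0129) fell, and their part in the collagen values was not tested.

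COL5A1 fell most among the called members, from 132, 114 and 122 CPM under EV to 41.2, 32.8 and 38.1 CPM under RAD21OE (-1.71, SE 0.10, adjusted p = 1.64e-08 by edgeR). Its partner COL5A2 fell from 632, 640.3 and 591 CPM to 378, 388 and 416 CPM (-0.66, SE 0.08, adjusted p = 1.67e-05 by edgeR). Both chains of the type V molecule were thus below every control library. COL11A1 fell from 16.5, 17.4 and 17.7 CPM to 14.0, 12.3 and 12.4 CPM (-0.42, adjusted p = 0.0268 by edgeR), a call that ended without any of the EV libraries or RAD21OE replicate 2 (adjusted p 0.0751 to 0.112). COL3A1 rose from 7.32, 9.02 and 7.51 CPM to 11.1, 13.8 and 15.8 CPM (0.77, SE 0.16, adjusted p = 0.00263 by edgeR). COL27A1 rose from 45.7, 39.5 and 44.5 CPM to 58.5, 57.0 and 62.9 CPM (0.46, SE 0.10, adjusted p = 0.00362 by edgeR). COL1A1 was at 27.9, 23.5 and 22.7 CPM with EV and 15.3, 17.2 and 22.8 CPM with RAD21OE (-0.42, adjusted p = 0.0512), which missed the threshold by edgeR. It passed in 7 of 14 alternatives, among them limma-voom (adjusted p = 0.0423), DESeq2 (0.0433), correction for GC content and length (0.000226) and leaving out RAD21OE replicate 3 (0.000162). By edgeR the fibrillar class held 3 genes that fell and 2 that rose among 10 tested, and by limma-voom and DESeq2 4 that fell and 2 that rose.

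Type IV genes fell in 4 of 6 cases under overexpression and none rose by edgeR, limma-voom or DESeq2 (0 at an unadjusted p under 0.05). COL4A5 fell from 46.1, 45.9 and 40.5 CPM to 24.2, 25.2 and 22.3 CPM (-0.89, SE 0.11, adjusted p = 3.48e-05 by edgeR), and its neighbour COL4A6 from 32.1, 31.4 and 32.3 CPM to 18.0, 21.3 and 23.3 CPM (-0.62, SE 0.12, adjusted p = 0.00171 by edgeR). COL4A1 fell from 84.6, 73.0 and 81.9 CPM to 48.0, 41.6 and 45.9 CPM (-0.82, SE 0.10, adjusted p = 2.70e-05 by edgeR), and COL4A2 from 209.7, 192 and 216 CPM to 129.7, 132 and 145 CPM (-0.60, SE 0.08, adjusted p = 0.000105 by edgeR). In these genes no RAD21OE library reached an EV library. COL4A3 was at 14.3, 15.8 and 12.9 CPM with EV and 12.9, 16.5 and 15.6 CPM with RAD21OE (0.07, SE 0.14), and COL4A4 at 19.8, 18.4 and 18.5 CPM with EV and 20.6, 20.7 and 20.8 CPM with RAD21OE (0.13, SE 0.12). The adjusted p-values of the last 2 were 0.793 and 0.474.

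Among the other collagens, 5 of 16 tested fell and 2 rose with RAD21OE. COL6A2 fell from 36.2, 28.5 and 34.9 CPM to 11.6, 13.5 and 17.6 CPM (-1.22, SE 0.15, adjusted p = 3.17e-05 by edgeR), and COL6A1 from 39.4, 36.5 and 40.1 CPM to 17.5, 16.4 and 23.0 CPM (-1.03, SE 0.13, adjusted p = 4.40e-05 by edgeR). COL6A3, at 1.10, 0.902 and 0.729 CPM with EV and 0.637, 0.451 and 0.440 CPM with RAD21OE, did not pass (-0.82, adjusted p = 0.203). COL17A1 fell from 5.78, 3.68 and 4.59 CPM to 2.33, 2.18 and 2.79 CPM (-0.94, adjusted p = 0.00717 by edgeR; 0.0627 without EV replicate 1). COL18A1 fell (-0.39, adjusted p = 0.00819 by edgeR), while SLC19A1 on its other strand rose (0.47, adjusted p = 0.00874). Its call ended without EV replicate 1 or 3 or RAD21OE replicate 2 (adjusted p 0.0533 to 0.0719), as did that of COL16A1, a fibril-associated chain (-0.64, adjusted p = 0.0278 by edgeR; 0.0798 to 0.164 without them, 0.0527 by DESeq2). COL26A1 rose from 16.3, 20.0 and 18.1 CPM to 31.9, 31.8 and 41.4 CPM (0.95, SE 0.13, adjusted p = 0.0001 by edgeR), and every RAD21OE library lay above every EV library. COL7A1 rose slightly, from 421, 386 and 399 CPM to 441, 469 and 510.0 CPM (0.24, adjusted p = 0.0432 by edgeR). This call ended without any of the EV libraries or RAD21OE replicate 2 (adjusted p 0.101 to 0.187). It also ended under correction for GC content and length, with a log2 fold change of 0.11 (adjusted p = 0.137 by edgeR).

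**Figure D4:**
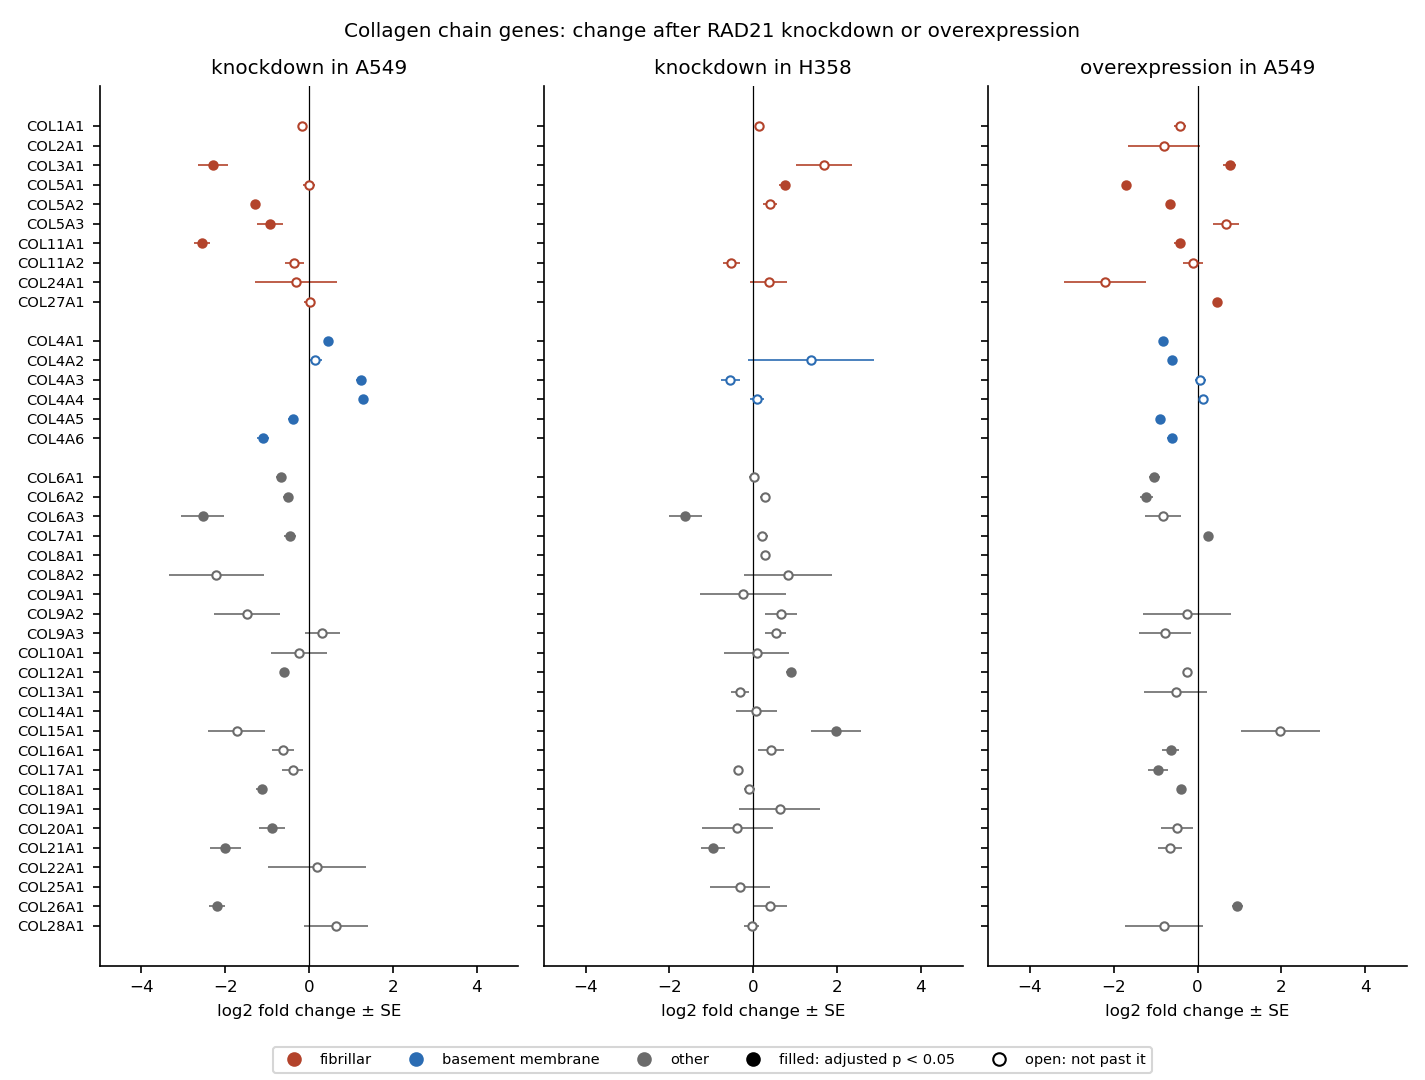
Log2 fold change (horizontal axis) with its standard error for every collagen gene tested in each of 3 comparisons, by class from top to bottom, filled where the adjusted p was under 0.05; COL27A1 and COL4A6 in H358 are left out because a group had 0 counts. In A549 15 genes fell with knockdown and 12 with overexpression, and in H358 3 rose and 3 fell.

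Set side by side, the A549 experiments shared directions for some chains and opposed them for others; they have separate control libraries and were fitted separately. Of the 30 members tested in both, 18 were called with knockdown and 16 with overexpression. COL11A1, COL18A1, COL4A5, COL4A6, COL5A2, COL6A1 and COL6A2 fell in both, 7 in all, where 288 of 20273 genes tested in both did. COL26A1, COL3A1 and COL7A1 fell with knockdown and rose with overexpression, and COL4A1 rose with knockdown and fell with overexpression. Over all genes tested in both, 527 were called lower then higher and 498 higher then lower. For COL3A1 the log2 fold change was -2.29 with knockdown and 0.77 with overexpression, and COL26A1 -2.20 and 0.95. COL4A3 and COL4A4 changed with knockdown and did not pass with overexpression, COL5A1 the reverse. A difference between these experiments was not tested. The control levels of the experiments differed for several of these genes: COL5A1 was at 29.3 CPM in A549 shNC and 123 CPM in A549 EV, COL3A1 at 2.92 and 7.95 CPM, COL6A1 at 22.4 and 38.7 CPM, and COL4A4 at 34.4 and 18.9 CPM. These levels come from tables scaled separately, and vector and batch cannot be told apart.

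**Figure D5:**
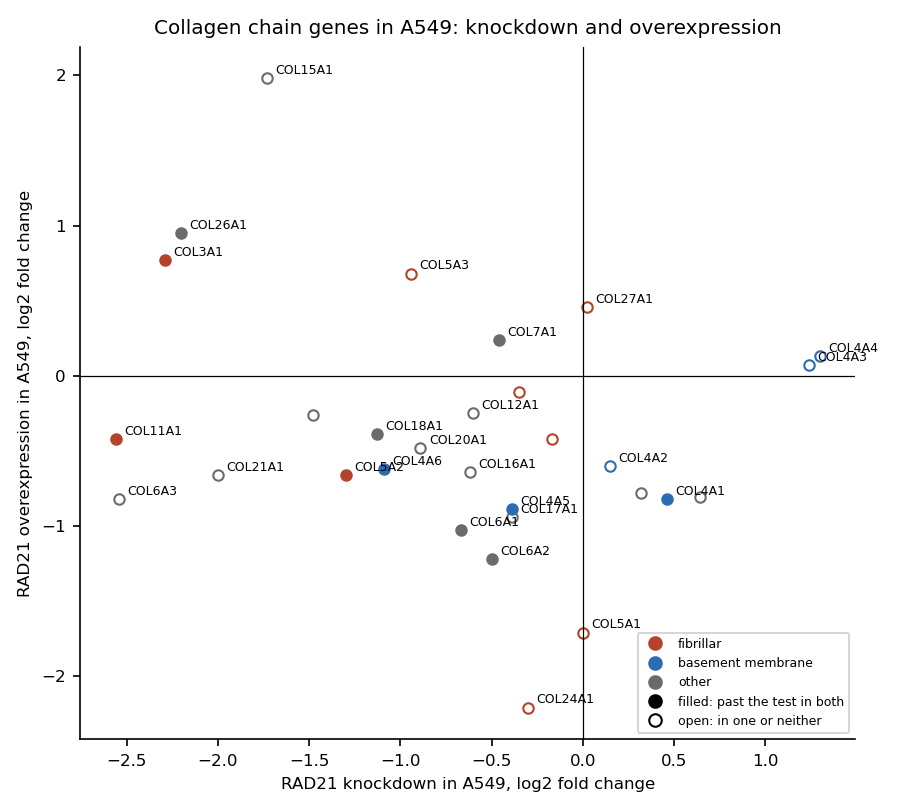
Each point is 1 of the 30 collagen genes tested in both A549 experiments, with its log2 fold change after knockdown (horizontal) and after overexpression (vertical), filled where both passed the test. Genes such as COL5A2, COL6A1 and COL4A6 lie low in both, COL3A1 and COL26A1 lie at the upper left, and COL4A3 and COL4A4 at the far right near 0 on the vertical axis.

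By class, the median log2 fold change with knockdown in A549 was -0.35 over 9 fibrillar, 0.30 over 6 basement membrane and -0.64 over 18 other genes tested. With overexpression it was -0.42 over 10, -0.61 over 6 and -0.58 over 16. In H358, with genes at 0 in a group set at their bound, it was 0.40 over 7, -0.23 over 4 and 0.08 over 23. These H358 medians include genes with few counts in shNC and shRAD21. Among them are COL4A2 (3 and 8) and COL4A6 (11 and 0) of basement membrane, and the fibrillar COL3A1 (5 and 16) and COL27A1 (0 and 10). The basement membrane class was the one in which knockdown in A549 raised genes, and it held both COL4A3 and COL4A4 with the largest rises and COL4A6 with a fall of similar size, so its median stands for no member. Several members lie near each other on the chromosomes. COL3A1 and COL5A2, 19149 bases apart on chromosome 2, both fell with knockdown in A549 (-2.29 and -1.30) and went opposite ways with overexpression (0.77 and -0.66). COL6A1 and COL6A2, 93046 bases apart on chromosome 21, fell together in both A549 experiments, with COL18A1, 468016 bases from COL6A1.

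The genes that process, export, crosslink, bind and cleave collagen were taken from lists of 56 genes, 50, 54 and 52 of which were tested in the A549 knockdown, the H358 knockdown and the overexpression. With knockdown in A549 7 rose and 13 fell, where 11.7% and 10.6% of all genes tested did. Of 15 genes for hydroxylation and glycosylation 5 fell, among them P3H2, a prolyl 3-hydroxylase (-1.11, adjusted p = 8.25e-10 by edgeR), and COLGALT1, which adds galactose to hydroxylysine (-0.45, adjusted p = 0.000109). Of 11 genes for folding and export 5 rose and 1 fell. CREB3L2, a transcription factor of the secretory pathway (0.75, adjusted p = 3.62e-07), and TMEM38B, a channel of the endoplasmic reticulum (0.70, adjusted p = 9.37e-05), rose, and FKBP10, a collagen chaperone (-0.78, adjusted p = 1.39e-05), fell. Of 11 genes for propeptide cleavage and crosslinking 2 fell, LOXL2, a lysyl oxidase (-1.52, adjusted p = 3.33e-11), and PCOLCE2, an enhancer of propeptide cleavage (-0.58, adjusted p = 0.00305). Among 9 receptors ITGA1 rose (1.55, adjusted p = 1.99e-08) and 3 fell, including DDR1, a collagen-activated kinase (-0.77, adjusted p = 3.03e-06), and MRC2, an uptake receptor (-0.85, adjusted p = 1.73e-06). Of 4 collagen-cleaving proteases CTSK rose (0.53, adjusted p = 0.0305), and MMP2 (-1.98, adjusted p = 9.64e-06) and MMP14 (-0.78, adjusted p = 0.00225) fell.

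With knockdown in H358 1 of these genes rose and 9 fell, where 2.80% and 3.54% of all genes tested did. LOXL2 fell here too, from 265 ± 12 to 164 ± 5.77 CPM (mean ± SD, n = 3; -0.69, adjusted p = 3.01e-05 by edgeR). SERPINH1, the collagen chaperone HSP47, rose (0.36, adjusted p = 0.0123), while SEC23A, a coat protein of export vesicles (-0.56, adjusted p = 0.000363), and CREB3L2 (-0.40, adjusted p = 0.00371) fell among 11 genes for folding and export, 4 of which fell. By DESeq2 4 of the 11 fell as well, and by limma-voom 2. CREB3L2 moved in opposite directions in the lines (difference -1.16, adjusted p = 3.33e-07 by edgeR). P3H2 (-0.31, adjusted p = 0.0268) and CRTAP, a partner of prolyl 3-hydroxylase (-0.24, adjusted p = 0.0140), were the 2 of 15 modifying enzymes that fell. Of 9 receptors 2 fell, the integrin chains ITGB1 (-0.34, adjusted p = 0.00520) and ITGA1 (-0.41, adjusted p = 0.0467). Of 6 proteases tested 0 were called by edgeR, limma-voom or DESeq2, and 0 had an unadjusted p under 0.05.

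With overexpression 3 of the 52 rose and 12 fell, where 10.5% and 9.42% of all genes tested did. Receptors held 5 of the falls among 9 tested. ITGA11, the collagen-binding integrin chain of fibroblasts, fell from 18.3 ± 2.03 to 4.02 ± 0.291 CPM (mean ± SD, n = 3; -2.19, adjusted p = 7.34e-08 by edgeR), and ITGB1, its partner, from 1947 ± 54.2 to 1275 ± 84.0 CPM (-0.61, adjusted p = 2.14e-05). Among 15 modifying enzymes P4HA3 (-1.43, adjusted p = 8.09e-07), a prolyl 4-hydroxylase chain, and PLOD2 (-0.89, adjusted p = 3.41e-05), a lysyl hydroxylase, fell, and P3H2 (0.51, adjusted p = 0.00102) and COLGALT1 (0.30, adjusted p = 0.0223), both lower with knockdown, rose. LOXL4 (-1.14, adjusted p = 0.00324) and PCOLCE (-0.49, adjusted p = 0.0274) were among 3 of 12 genes for propeptide cleavage and crosslinking that fell. Of 5 proteases MMP2 (-1.66, adjusted p = 4.86e-07) and CTSK (-0.64, adjusted p = 0.0234) fell and MMP14 rose (0.84, adjusted p = 0.00450). Among 11 genes for folding and export 0 were called by edgeR, limma-voom or DESeq2, with 1 higher and 4 lower at an unadjusted p under 0.05.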

How the data were processed

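RNA of 18 libraries was extracted with TRIzol and prepared with a VAHTS kit, per the labels' protocols. The authors deposited raw counts per gene in 2 tables, 12 libraries of the knockdown and 6 of the overexpression. The build hg38 and the tools HISAT2 2.0.5, featureCounts 1.5.0-p3 and fastp appear in the submitters' processing notes, with no settings. Other deposited columns, such as gene length, equal GENCODE 29, and 0 count columns were left without a sample. Each table was fitted on its own in R 4.3.3 with edgeR 4.0.16 (TMM scaling, 1 mean per group, quasi-likelihood F-test, two-sided) on genes with 10 or more counts over the 6 libraries of a comparison. The 12 libraries of the knockdown thus share 1 estimate of the spread, and libraries of either line enter the p-values of the other. Adjusted p is Benjamini-Hochberg over every gene tested there, and a gene fell or rose at an adjusted p under 0.05. CPM use the TMM-scaled library size, FPKM divide them by merged exon length, and values are in the order of replicates 1 to 3. Members with at least 1 CPM that were called, up to 8 per comparison by size, and their partner chains are given in every library. In each list of processing genes, called members with the smallest adjusted p are named, up to 2 per direction. A fold against a group at 0 uses a floor of 3 counts over the group and covers counting error only. Members and lists were chosen with earlier results of these data known. Alternatives were DESeq2 1.42.0 (size factors, Wald test), limma 3.58.1 (voom), other filters, a GC and length correction, a replicate block, the 6 libraries alone, and each library left out. The tests were tried on simulated counts of the 6 libraries of a comparison, with the same dispersion for every gene. Those counts held no deviating replicate and no GC trend, so the effect of these was not checked. Figures used matplotlib 3.10.9 in Python 3.11.15.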

Additional observations from a re-analysis of the deposited data

Results flagged for a closer look

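For 13 collagen genes the response to RAD21 knockdown differed between H358 and A549 by the test of the difference (edgeR, adjusted p under 0.05), given as H358 minus A549 on the log2 scale. Those more positive in H358 were COL12A1 (1.5), COL15A1 (3.70), COL18A1 (1.04), COL26A1 (2.61), COL27A1 (4.70), COL3A1 (3.96), COL5A1 (0.75), COL5A2 (1.70), COL6A1 (0.68), COL6A2 (0.79) and COL7A1 (0.68). COL4A3 (-1.79) and COL4A4 (-1.22) were more negative. The value of COL27A1 rests on 10 counts against 0 in H358 and is no bound. Its call ended without any 1 H358 library or A549 shRAD21 replicate 2 (adjusted p 0.0502 to 0.107). That of COL7A1 ended without A549 shNC replicate 1, A549 shRAD21 replicate 1 or 2, H358 shNC replicate 3 or H358 shRAD21 replicate 2 (adjusted p 0.0537 to 0.0747).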

How the results depend on the processing

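With knockdown in A549, the 3 collagens called higher stayed 3 under each alternative, and the 15 called lower ranged from 11 to 19 with 1 library left out, the highest without shRAD21 replicate 3. COL4A2 reversed without that library (log2 fold change 0.15 with all libraries, -0.19 to 0.34 with 1 left out). With knockdown in H358 the counts were least stable: the 3 higher became 5 and the 3 lower 6 with GC and length correction, alone or with the replicate block, and the 3 higher became 7 with only the 6 libraries of the comparison. With 1 library left out, 2 rose and 0 to 3 fell, with none lower (edgeR) without replicate 1 or 2 of either group, and the cause was not tested. With overexpression the 4 higher and 12 lower ranged from 3 to 5 and 8 to 13. With the replicate number as a block, 3 rose and 15 fell in A549, 2 rose and 2 fell in H358, and 4 rose and 12 fell with overexpression; same-numbered libraries did not deviate together (r between -0.127 and 0.114). Few counts limit COL4A6, COL15A1, COL27A1, COL6A3, COL26A1 and COL3A1 in H358.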
